A study of Mus musculus with 22 samples.

Results

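The genes described here are 10 components of the Notch signalling pathway, measured by RNA-seq in heart ventricles of mouse E13.5 embryos. They are the receptors Notch1, Notch2, Notch3 and Notch4, the ligands Dll4 and Jag1, the nuclear effector Rbpj and the target genes Hes1, Hey1 and Heyl. They were taken by gene symbol from both count tables, in which they are 10 of 48709 genes, and all 10 passed the filter on low counts in both experiments.

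The study asked how the MuvB subunit LIN9 and the Hippo scaffold Salvador (Sav1) act on gene expression in the embryonic heart. All embryos described here carried Nkx2.5-Cre, which is active in cardiac precursor cells. Experiment 1 compared LIN9 wt ventricles with LIN9 KO ventricles (Lin9 fl/fl), both with wild-type Sav1, in 3 libraries each. Experiment 2 had 4 genotypes with 3 libraries each, in which LIN9 and Sav1 (Sav1 fl/fl) were each present or lost. The floxed alleles lose exon 7 of Lin9 and exon 3 of Sav1. The LIN9 wt embryos are labelled wild-type, whereas the study gives their genotype as Lin9 fl/+, which makes them heterozygous for the floxed allele in the presence of the Cre. In the text, the LIN9 wt Sav1 wt group of experiment 2 is called the control, the group without both genes the double KO, and the single mutants LIN9 KO and Sav1 KO. The labels do not say that the replicates come from separate embryos, and the study describes its comparison of LIN9 KO with LIN9 wt as made in biological replicates that were each run in triplicate, so p-values measure the spread between these libraries, which may be technical. The methods of the study add that RNA was isolated in triplicate from ventricular tissue, without saying whether each isolation came from a separate embryo.

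Notch receptors are single-pass membrane proteins that are activated by ligands of the Delta and Jagged families on neighbouring cells. Ligand binding leads to cleavage by ADAM proteases and gamma-secretase, and the released intracellular domain joins the DNA-binding protein RBPJ in the nucleus to switch on genes such as those of the Hes and Hey families. In the embryonic heart, Notch1, Notch4 and Dll4 are known from endocardium and endothelium, Notch3 from mural cells of the vessel wall, and Notch signalling from endocardium to myocardium is known for its part in the formation of trabeculae and valves.

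Total counts were 9485599 to 9615274 per library in experiment 1 and 2770741 to 2999877 in experiment 2, so that 1 count stood for 0.103 to 0.108 CPM (counts scaled to library size with TMM normalization) in the first and 0.328 to 0.373 CPM in the second. Each of the 10 genes had between 32 and 881 counts in every library. Of the targeted genes, Lin9 was at 29.8, 21.4 and 25.6 CPM in LIN9 wt and 21.4, 21.3 and 19.2 CPM in LIN9 KO ventricles of experiment 1. In experiment 2, Lin9 was at 29.3, 28.1 and 23.2 CPM in control, 13.1, 15.4 and 17.9 CPM in LIN9 KO, 19.2, 31.4 and 25.6 CPM in Sav1 KO and 23.5, 26.1 and 18.5 CPM in double KO ventricles. It was lower in all LIN9 KO libraries than in the LIN9 wt libraries of the same experiment where Sav1 was intact, although the closest libraries of experiment 1 were both at 21.4 CPM, while the double KO overlapped the Sav1 KO, so that the Lin9 level does not check the labels of the double KO, and the test was passed only in LIN9 KO against control of experiment 2 (log2 fold change -0.80 ± 0.19 (SE), edgeR adjusted p = 0.00270). Sav1 was at 54.5, 56.2 and 61.9 CPM in control, 51.9, 49.9 and 47.3 CPM in LIN9 KO, 43.1, 36.1 and 43.0 CPM in Sav1 KO and 44.0, 40.5 and 42.3 CPM in double KO ventricles, with no overlap between Sav1 wt and Sav1 KO in either LIN9 background, although the difference did not pass the test (adjusted p = 0.318 and 0.464). These counts cover the whole gene, of which the deleted exon is only a part, and 25.4% of the exonic length of Sav1 lies under another gene. Cardiomyocyte markers were abundant (12505 to 14008 CPM summed in LIN9 wt ventricles of experiment 1), as were the ventricular markers Myl2, Irx4 and Hand1 (4393 to 5278 CPM), but Actc1 was listed at 0 in all 18 libraries, so a gene listed at 0 in these tables cannot be taken as not expressed. One LIN9 KO library of experiment 2 (replicate 3) differed from its 2 replicates by a chi-square of 21.5 and 15.2 per degree of freedom over all genes, against 6.28 between those 2 replicates. Pairs of control libraries differed by 1.22 to 5.11, of Sav1 KO libraries by 1.39 to 1.98 and of double KO libraries by 2.83 to 7.33. Counting noise alone gives a value near 1, so the spread was unequal between these groups. In experiment 1, the 3 pairs of LIN9 KO libraries differed by 16.2 to 26.2 and the 3 pairs of LIN9 wt libraries by 5.67 to 10.2. At equal relative spread this value rises with depth, so it does not compare the experiments.

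To compare genes with each other, CPM were divided by the exonic length of each gene in kb. This length joins the annotated exons of all transcripts of a gene (14.2 kb for Notch1, 12.75 kb for Rbpj and 2.04 kb for Hes1). It can exceed the length of the RNA that is present. The order below depends on this choice, and other lengths were not tried. Hes1 had the highest level of the 10 genes in each of the 6 groups, and its libraries did not overlap those of the next gene. In LIN9 wt ventricles of experiment 1, Hes1 stood at 13.3 ± 0.791 CPM per kb (SD, n = 3), followed by Notch2 at 6.58 ± 0.601, Hey1 at 6.54 ± 0.519 and Jag1 at 6.11 ± 0.634 CPM per kb. Notch1 (5.04 ± 0.379), Rbpj (4.496 ± 0.235), Dll4 (4.47 ± 0.775) and Notch4 (4.12 ± 0.353) came next. These 7 genes formed a continuous series in which each overlapped its neighbour. Heyl (3.23 ± 0.374) and Notch3 (2.98 ± 0.421) were lowest, overlapped each other and lay below Notch4 in all libraries.

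In the control ventricles of experiment 2, Hes1 (13.7 ± 2.40 CPM per kb) and Notch2 (7.56 ± 0.501) again came first and Heyl (3.48 ± 0.187) and Notch3 (3.12 ± 0.225) last, while Dll4 (4.76 ± 0.706), Notch1 (4.62 ± 0.320) and Notch4 (4.59 ± 1.10) followed each other with overlap. Notch3 was the lowest of the 10 genes in all 3 LIN9 wt groups. In LIN9 KO ventricles it stood at rank 6 in experiment 1 (5.35 ± 0.784 CPM per kb), at rank 3 in experiment 2 (8.47 ± 1.45) and at rank 5 in the double KO (6.76 ± 1.01), and it overlapped the gene ranked above it in each. Notch4 held the lowest rank in these 3 groups (3.82 ± 0.781, 4.28 ± 0.792 and 4.17 ± 0.596 CPM per kb), and it overlapped the next gene, Dll4 or Heyl, in each.

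**Figure D1:**
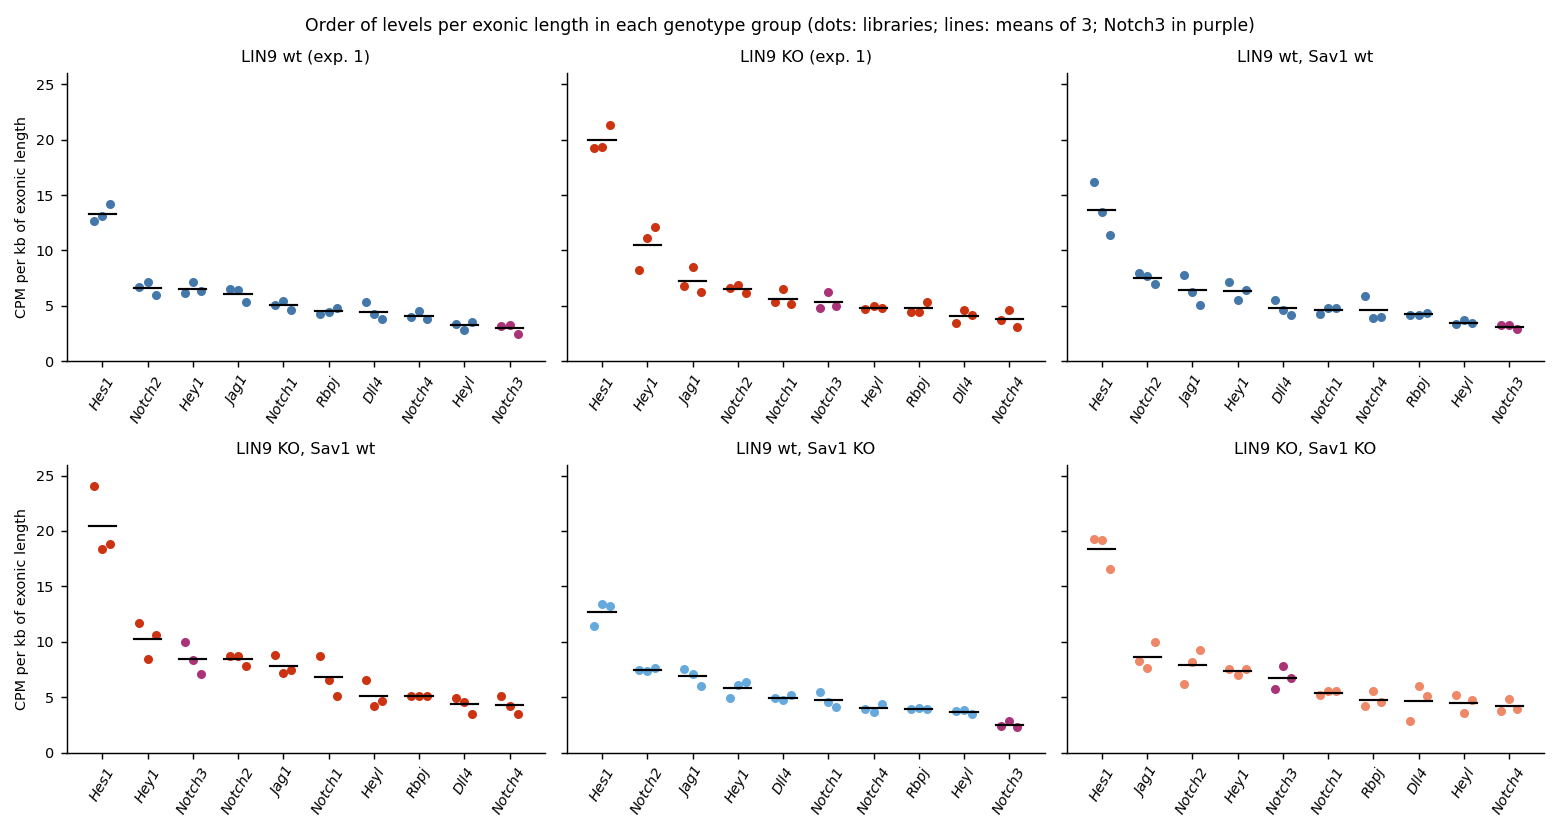
Levels of the 10 genes in CPM per kb of exonic length (y axis), ordered by their mean within each of the 6 genotype groups (panels); dots are libraries, lines are means of 3 libraries. Hes1 is highest in every panel, and Notch3 (purple) is last in the LIN9 wt groups and at ranks 3 to 6 in the LIN9 KO groups.

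Loss of LIN9 was accompanied by higher levels of some receptors and targets, and no gene of the 10 passed the test as lower. Notch3 and Hes1 were higher in LIN9 KO than in LIN9 wt ventricles in all 3 comparisons. Hey1 and Heyl were higher in both comparisons with wild-type Sav1, and Notch1 in 1 comparison. Notch2, Notch4, Dll4, Jag1 and Rbpj passed the test in none. In experiment 1, 4 of the 10 genes passed (edgeR quasi-likelihood test, adjusted p under 0.05 over all genes), against a background of 20.9% of 19752 genes called in either direction, 11.1% called higher and 9.78% lower. In experiment 2, 5 of 10 passed between LIN9 KO and control (background 23.2%, higher 12.8% and lower 10.5%), and 2 of 10 between double KO and Sav1 KO (background 23.4%, higher 11.8% and lower 11.6%), a share close to the background. With 1 library left out, 2 to 5 passed between LIN9 KO and control, 1 to 2 between double KO and Sav1 KO, and 4 in experiment 1. The calls of Notch1, Hes1 and Heyl against control were all lost without LIN9 KO replicate 1. The median log2 fold change of the 10 genes was 0.20, 0.43 and 0.28 in the 3 comparisons, beside 0.016, 0.0086 and 0.032 over all genes tested. The groups did not overlap, with the LIN9 KO higher, for 4 genes in experiment 1 (background in that direction 18.4%), for 6 in LIN9 KO against control (18.4%) and for 5 in double KO against Sav1 KO (21.9%). The 3 comparisons share no libraries, and those of experiment 2 share 1 estimate of the spread.

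**Figure D2:**
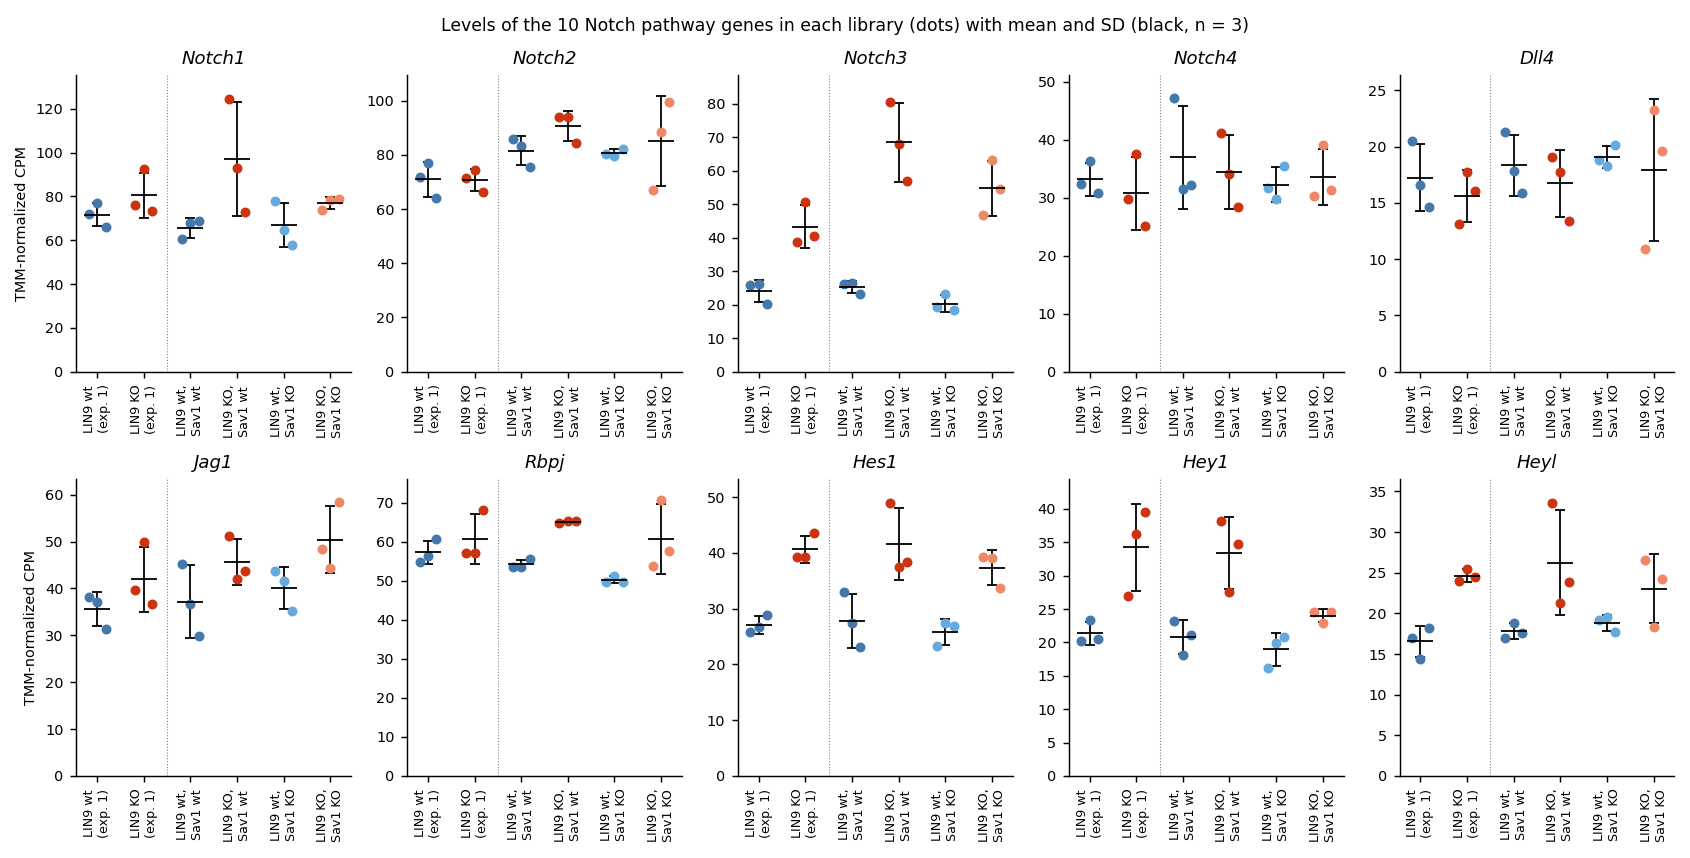
TMM-normalized CPM (y axis) of each of the 10 genes (panels) in the 18 libraries (dots), by genotype group (x axis); black marks are the mean and SD of 3 libraries, and the dotted line separates experiments 1 and 2. Notch3 reaches 38.8 to 80.5 CPM in the LIN9 KO groups and 18.4 to 26.4 CPM in the LIN9 wt groups.

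Notch3 (ENSMUSG00000038146, chr17:32120820-32166852 on GRCm38, minus strand) encodes a receptor that is known from vascular smooth muscle cells and pericytes. It showed the largest increase of the 10 genes, and the 250 bases before its annotated start are therefore shown (RefSeq, GRCm38.p6, chr17:32166891-32167140, minus strand, written 5′ to 3′). Capitals here and below would mark a match, on either strand, to the RBPJ core letters TGGGAA, to the CHR letters TTTGAA that the MuvB complex recognises, or to the TEAD letters GGAATG, and the RBPJ and TEAD letters share GGAA, so that their matches can overlap.
Notch3: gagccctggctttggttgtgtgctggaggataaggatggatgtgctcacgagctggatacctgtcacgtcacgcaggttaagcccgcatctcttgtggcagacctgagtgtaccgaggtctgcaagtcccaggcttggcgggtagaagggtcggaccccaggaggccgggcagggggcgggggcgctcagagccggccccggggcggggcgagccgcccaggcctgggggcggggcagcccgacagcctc
The Notch3 sequence holds none of the 3 motifs. Of 32851 mouse promoters in the same table, 21.6% hold the RBPJ letters, 16.0% the CHR letters and 12.6% the TEAD letters in these 250 bases, and a match or its absence is a description of this window only.

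Notch3 was at 25.9, 26.2 and 20.2 CPM in LIN9 wt and 38.8, 50.5 and 40.5 CPM in LIN9 KO ventricles of experiment 1. In experiment 2, it was at 26.3, 26.4 and 23.2 CPM in control and 80.5, 67.9 and 57.0 CPM in LIN9 KO ventricles. In the Sav1-deficient pair, it was at 19.2, 23.3 and 18.4 CPM in Sav1 KO and 46.7, 63.0 and 54.4 CPM in double KO ventricles. Every LIN9 KO library lay above every LIN9 wt library, within each experiment and over both. Notch3 rose 1.80-fold in experiment 1 (log2 fold change 0.85 ± 0.14 (SE), edgeR adjusted p = 4.07e-04), 2.71-fold in LIN9 KO against control (1.44 ± 0.15, adjusted p = 3.45e-08) and 2.69-fold in double KO against Sav1 KO (1.43 ± 0.16, adjusted p = 9.49e-08). The call held when any single library was left out, with log2 fold changes of 0.72 to 0.92, 1.29 to 1.52 and 1.29 to 1.53. Of the exonic length of Notch3, 6.03% lies under a gene on the other strand, as do 9.76% for Notch1 and 5.56% for Dll4, and reads there could be counted for either gene or neither.

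Notch1 (ENSMUSG00000026923, chr2:26457903-26516663, minus strand) encodes the receptor whose loss in mice is known to disturb endocardial and trabecular development. The 250 bases before its RefSeq start (chr2:26503823-26504072, GRCm38.p6, minus strand), which lies inside the longer GENCODE gene, are shown because they hold TEAD letters, beginning 233 and 216 bases before the start, both as the reverse complement.
Notch1: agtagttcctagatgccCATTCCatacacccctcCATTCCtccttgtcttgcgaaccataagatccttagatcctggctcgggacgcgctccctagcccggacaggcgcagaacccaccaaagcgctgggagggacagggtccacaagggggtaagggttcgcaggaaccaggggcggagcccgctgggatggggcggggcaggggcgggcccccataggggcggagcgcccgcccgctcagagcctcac
Neither the RBPJ nor the CHR letters occur in this window. Among the other genes with a sequence in the table, Notch4 has TEAD letters 227 bases before its start, while Notch2, Dll4 and Jag1 have none of the 3 motifs.

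Notch1 was at 72.1, 76.8 and 66.1 CPM in LIN9 wt and 76.0, 92.4 and 73.3 CPM in LIN9 KO ventricles of experiment 1. In experiment 2, the control libraries were at 60.5, 67.8 and 68.8 CPM and the LIN9 KO libraries at 125, 93.2 and 73.1 CPM. Without Sav1, the values were 77.7, 64.8 and 58.0 CPM in Sav1 KO and 73.6, 78.5 and 78.6 CPM in double KO ventricles. The groups overlapped in experiment 1 and in the Sav1-deficient pair, and only the LIN9 KO libraries of experiment 2 lay above all of their controls, with replicate 1 the highest. Notch1 rose 1.48-fold there (log2 fold change 0.56 ± 0.15 (SE), edgeR adjusted p = 0.00792), and without LIN9 KO replicate 1 the value was 0.33 (adjusted p = 0.0610), which did not pass. In experiment 1 the log2 fold change was 0.17 ± 0.11 (adjusted p = 0.331, 95% confidence interval -0.069 to 0.41), and in the Sav1-deficient pair it was 0.20 ± 0.15 (adjusted p = 0.373, interval -0.11 to 0.52). Genes on the other strand cover 9.76% of the exonic length of Notch1.

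Notch2 (ENSMUSG00000027878, chr3:98013527-98150361, plus strand) encodes a broadly expressed receptor with known roles in outflow tract and vascular smooth muscle development. Its levels were 71.9, 76.8 and 64.0 CPM in LIN9 wt and 71.3, 74.5 and 66.2 CPM in LIN9 KO ventricles of experiment 1. In experiment 2, they were 85.8, 83.3 and 75.4 CPM in control, 94.0, 93.8 and 84.3 CPM in LIN9 KO, 80.4, 79.7 and 82.2 CPM in Sav1 KO and 67.1, 88.4 and 99.6 CPM in double KO ventricles. The groups overlapped in every comparison, and the double KO libraries spread most. The log2 fold changes for LIN9 were -0.0048 ± 0.10, 0.16 ± 0.12 and 0.073 ± 0.12 (SE) in the order of the comparisons above, with adjusted p of 0.990, 0.396 and 0.717. The 95% confidence intervals for Notch2 ran from -0.23 to 0.22, from -0.089 to 0.40 and from -0.17 to 0.32. Another gene on the same strand covers 5.02% of its exonic length.

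Notch4 (ENSMUSG00000015468, chr17:34564268-34588503, plus strand) encodes a receptor known mainly from endothelial cells. In experiment 1, it was at 32.3, 36.4 and 30.9 CPM in LIN9 wt and 29.7, 37.5 and 25.1 CPM in LIN9 KO ventricles. For experiment 2, the values were 47.2, 31.5 and 32.2 CPM in control, 41.1, 34.1 and 28.3 CPM in LIN9 KO, 31.6, 29.7 and 35.5 CPM in Sav1 KO and 30.3, 39.1 and 31.3 CPM in double KO ventricles. All groups overlapped, and the highest single value was that of control replicate 1. The log2 fold changes for LIN9 were -0.11 ± 0.14, -0.096 ± 0.16 and 0.057 ± 0.17 (SE), with adjusted p of 0.654, 0.742 and 0.852 and 95% confidence intervals of -0.41 to 0.19, -0.43 to 0.24 and -0.29 to 0.40.

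Of the ligands, Dll4 (ENSMUSG00000027314, chr2:119325784-119335962, plus strand) is the Delta-type ligand of endothelium and endocardium. It was at 20.5, 16.55 and 14.6 CPM in LIN9 wt and 13.1, 17.7 and 16.0 CPM in LIN9 KO ventricles of experiment 1. The levels of Dll4 in experiment 2 were 21.3, 17.8 and 15.9 CPM in control, 19.1, 17.7 and 13.4 CPM in LIN9 KO, 18.8, 18.2 and 20.1 CPM in Sav1 KO and 10.9, 23.2 and 19.6 CPM in double KO ventricles. The groups overlapped in every comparison, and the double KO libraries differed among themselves more than any other group of the 10 genes (coefficient of variation 35.4%). The log2 fold changes for LIN9 were -0.14 ± 0.16, -0.13 ± 0.22 and -0.094 ± 0.21 (SE), with adjusted p of 0.607, 0.740 and 0.798. With 32 to 66 counts per library in experiment 2, the 95% confidence interval in LIN9 KO against control ran from -0.57 to 0.31. A gene on the other strand covers 5.56% of its exonic length.

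Jag1 (ENSMUSG00000027276, chr2:137081456-137116644, minus strand) encodes the Jagged-type ligand that is mutated in Alagille syndrome, a disease with heart and vessel defects. It was at 38.2, 37.2 and 31.4 CPM in LIN9 wt and 39.6, 49.8 and 36.6 CPM in LIN9 KO ventricles of experiment 1. The libraries of experiment 2 had Jag1 at 45.2, 36.7 and 29.7 CPM in control, 51.3, 42.0 and 43.6 CPM in LIN9 KO, 43.7, 41.5 and 35.1 CPM in Sav1 KO and 48.4, 44.4 and 58.3 CPM in double KO ventricles. Only the Sav1-deficient pair did not overlap, and there the lowest double KO library lay just above the highest Sav1 KO library. The log2 fold changes for LIN9 were 0.24 ± 0.13, 0.29 ± 0.15 and 0.33 ± 0.15 (SE), all positive, and none passed the test (adjusted p of 0.225, 0.174 and 0.114). With 1 library left out, they ran from 0.097 to 0.33, from 0.16 to 0.44 and from 0.19 to 0.39.

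Rbpj (ENSMUSG00000039191, chr5:53466152-53657362, plus strand) encodes the DNA-binding protein through which all 4 receptors act. Of the 7 genes with a sequence in the table, it is the only one with RBPJ letters before its start, and the 250 bases before the first of its RefSeq starts (chr5:53590096-53590345, GRCm38.p6, plus strand), which also lies inside the GENCODE gene, are shown for that reason. The capitals mark TEAD letters 167 bases before the start and RBPJ letters 149 and 65 bases before it, the last as the reverse complement.
Rbpj: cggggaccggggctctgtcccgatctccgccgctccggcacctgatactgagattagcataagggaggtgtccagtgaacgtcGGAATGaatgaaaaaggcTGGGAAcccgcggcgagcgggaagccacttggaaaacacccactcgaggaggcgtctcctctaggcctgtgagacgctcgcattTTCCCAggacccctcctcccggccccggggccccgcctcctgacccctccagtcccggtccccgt
The window before the second RefSeq start of Rbpj overlaps this one and holds the same last match, 205 bases before that start. No window of the 8 examined, for 7 of the 10 genes, holds the CHR letters. Hey1, Heyl and Hes1 had no sequence in the table.

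Rbpj was at 54.9, 56.4 and 60.7 CPM in LIN9 wt and 57.0, 57.1 and 68.1 CPM in LIN9 KO ventricles of experiment 1. With the libraries of experiment 2, Rbpj was at 53.5, 53.4 and 55.7 CPM in control and 64.7, 65.3 and 65.2 CPM in LIN9 KO ventricles. Without Sav1, it was at 49.8, 51.3 and 49.8 CPM in Sav1 KO and 53.9, 70.8 and 57.6 CPM in double KO ventricles. Both LIN9-deficient groups of experiment 2 lay above their LIN9 wt counterparts without overlap, whereas the groups of experiment 1 overlapped. The differences were small, with log2 fold changes of 0.26 ± 0.12 and 0.27 ± 0.12 (SE) in experiment 2 and 0.083 ± 0.11 in experiment 1, and did not pass the test (adjusted p of 0.104, 0.0954 and 0.647). Without 1 library, the values of experiment 2 ran from 0.22 to 0.28 and from 0.12 to 0.32.

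The target genes encode basic helix-loop-helix repressors. Hes1 (ENSMUSG00000022528, chr16:30064384-30067796, plus strand), a target of Notch in many tissues, was at 25.8, 26.7 and 28.9 CPM in LIN9 wt and 39.3, 39.3 and 43.5 CPM in LIN9 KO ventricles of experiment 1. In experiment 2, it was at 32.9, 27.4 and 23.2 CPM in control and 49.0, 37.4 and 38.4 CPM in LIN9 KO ventricles, and at 23.2, 27.4 and 27.0 CPM in Sav1 KO and 39.2, 39.1 and 33.8 CPM in double KO ventricles. In each of the 3 pairs, all LIN9-deficient libraries lay above all LIN9 wt libraries. Hes1 rose 1.502-fold in experiment 1 (log2 fold change 0.59 ± 0.11 (SE), edgeR adjusted p = 0.00124), 1.49-fold in LIN9 KO against control (0.58 ± 0.15, adjusted p = 0.00546) and 1.45-fold in double KO against Sav1 KO (0.53 ± 0.16, adjusted p = 0.0125). The call in experiment 1 held without any single library. In LIN9 KO against control it was lost without LIN9 KO replicate 1 (0.43, adjusted p = 0.0555) or control replicate 3 (0.46, adjusted p = 0.0535). In the Sav1-deficient pair it was lost without double KO replicate 1 (0.47, adjusted p = 0.0581), double KO replicate 2 (0.48, adjusted p = 0.0664) or Sav1 KO replicate 1 (0.46, adjusted p = 0.0725).

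Hey1 (ENSMUSG00000040289, chr3:8663359-8667256, minus strand) is a Notch target known in the heart from atrial myocardium, endocardium and cushions. Its levels in experiment 1 were 20.2, 23.3 and 20.6 CPM in LIN9 wt and 27.0, 36.3 and 39.5 CPM in LIN9 KO ventricles. In experiment 2, they were 23.3, 18.2 and 21.1 CPM in control and 38.1, 27.6 and 34.7 CPM in LIN9 KO ventricles, and 16.2, 19.9 and 20.8 CPM in Sav1 KO and 24.5, 22.9 and 24.5 CPM in double KO ventricles. LIN9-deficient libraries lay above LIN9 wt libraries in all 3 pairs, and the double KO libraries lay below those of the LIN9 KO. Hey1 rose 1.61-fold in experiment 1 (log2 fold change 0.68 ± 0.14 (SE), edgeR adjusted p = 0.00293) and 1.60-fold in LIN9 KO against control (0.68 ± 0.16, adjusted p = 0.00233), and both calls held without any single library (0.57 to 0.83 and 0.55 to 0.77). In double KO against Sav1 KO, the log2 fold change was 0.34 ± 0.17 (adjusted p = 0.157, 95% confidence interval -0.0095 to 0.69), which did not pass.

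Heyl (ENSMUSG00000032744, chr4:123233556-123249875, plus strand) is a Notch target known from vascular smooth muscle. It was at 17.0, 14.4 and 18.2 CPM in LIN9 wt and 24.0, 25.5 and 24.5 CPM in LIN9 KO ventricles of experiment 1. Heyl in experiment 2 was at 17.0, 18.8 and 17.6 CPM in control and 33.5, 21.3 and 23.9 CPM in LIN9 KO ventricles, and at 19.2, 19.6 and 17.7 CPM in Sav1 KO and 26.6, 18.3 and 24.2 CPM in double KO ventricles. The groups with wild-type Sav1 did not overlap in either experiment, while 1 double KO library fell among the Sav1 KO libraries. Heyl rose 1.49-fold in experiment 1 (log2 fold change 0.57 ± 0.13 (SE), edgeR adjusted p = 0.00491), which held without any single library, and 1.47-fold in LIN9 KO against control (0.56 ± 0.18, adjusted p = 0.0251). The second call was lost with DESeq2 (adjusted p = 0.0971), with a fit to the 6 libraries of the comparison alone (0.53, adjusted p = 0.0624) and without LIN9 KO replicate 1 (0.32, adjusted p = 0.249) or any of control replicates 1, 2 and 3 (adjusted p of 0.0825, 0.0624 and 0.0713). In the Sav1-deficient pair, the log2 fold change of Heyl was 0.29 ± 0.18 (adjusted p = 0.281, interval -0.088 to 0.67).

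**Figure D3:**
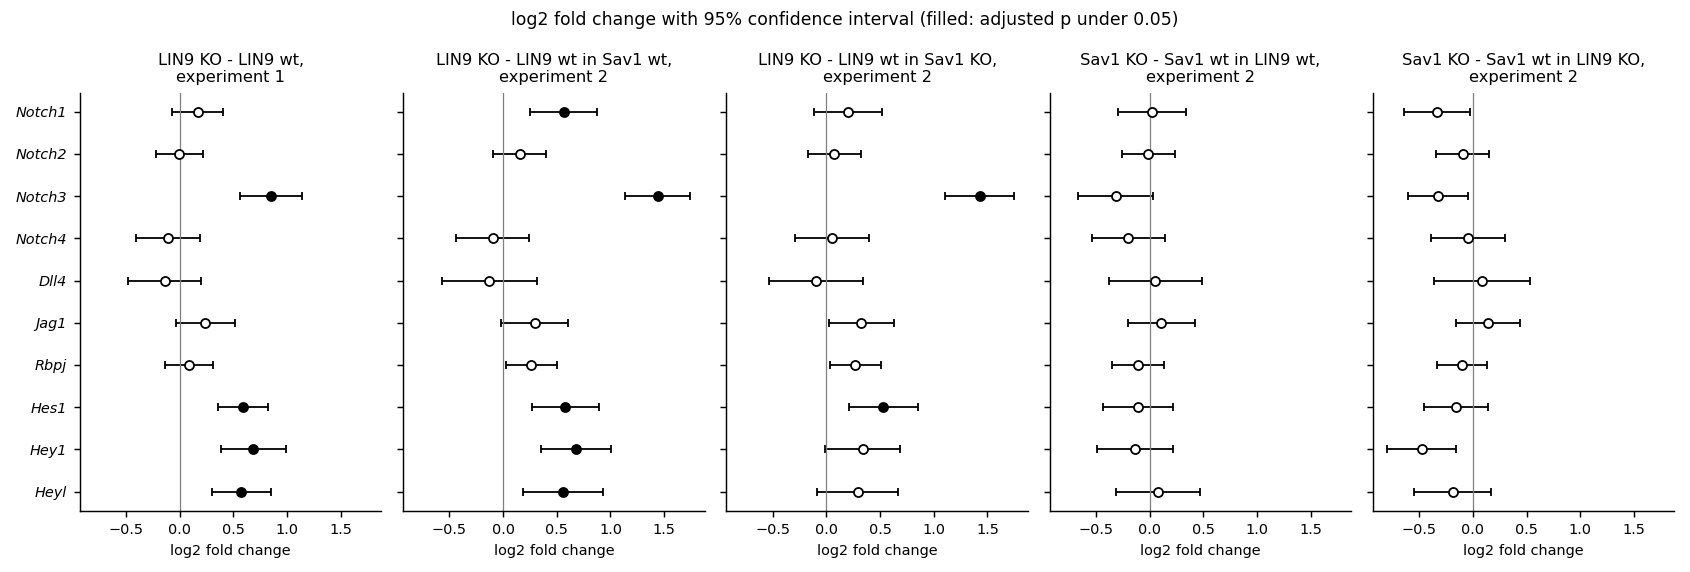
log2 fold change (x axis) with 95% confidence interval of the 10 genes (y axis) in the 5 comparisons between genotypes (panels) from edgeR; filled dots have an adjusted p under 0.05. Filled dots are at 0.53 or above and stand only in the 3 LIN9 panels, at Notch3 and Hes1 in each of them.

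The effect of Sav1 was compared within each LIN9 background, in libraries that also enter the LIN9 comparisons of experiment 2. Between Sav1 KO and control ventricles, none of the 10 genes passed the test (0 of 10 with edgeR, 0 with DESeq2 and 0 at an unadjusted p under 0.05), where 0.0170% of 17675 genes passed (3 genes) and 3.92% had an unadjusted p under 0.05. Notch3 was at 18.4 to 23.3 CPM in Sav1 KO and 23.2 to 26.4 CPM in control ventricles (log2 fold change -0.32 ± 0.17 (SE), edgeR adjusted p = 0.999). Rbpj was the only gene whose groups did not overlap, with 49.8 to 51.3 CPM in Sav1 KO and 53.4 to 55.7 CPM in control ventricles (-0.11 ± 0.12, adjusted p = 0.999), where 6.14% of all genes were lower without overlap. For the targets, the 95% confidence intervals of the Sav1 effect were -0.44 to 0.22 for Hes1, -0.49 to 0.22 for Hey1 and -0.31 to 0.47 for Heyl.

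Between double KO and LIN9 KO ventricles, again 0 of the 10 genes passed with edgeR and 0 with DESeq2, with 3 at an unadjusted p under 0.05 (Notch1, Notch3 and Hey1), where 0.0113% of all genes passed (2 genes) and 11.8% had an unadjusted p under 0.05. Hey1 was at 22.9 to 24.5 CPM in double KO and 27.6 to 38.1 CPM in LIN9 KO ventricles without overlap (log2 fold change -0.48 ± 0.16 (SE), edgeR adjusted p = 0.210), the only gene of the 10 in which these groups did not overlap (7.88% of all genes were lower without overlap). The value for Notch3 was -0.33 ± 0.14 (adjusted p = 0.340) and for Notch1 -0.34 ± 0.15 (adjusted p = 0.375), both with overlapping groups. Of the 10 genes, 2 had a positive value in this comparison, the ligands Dll4 (0.086 ± 0.22) and Jag1 (0.14 ± 0.15). This comparison depended on LIN9 KO replicate 3, without which 378 genes passed in place of 2, and Notch1 passed as lower (-0.51, adjusted p = 0.0372). With the replicate number as a block, 84 genes passed and none of the 10.

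Whether the LIN9 effect differed between Sav1 backgrounds was tested by the interaction. None of the 10 genes passed (0 with edgeR, 0 with DESeq2, 0 at an unadjusted p under 0.05), nor did any of the 17675 genes with either tool (0 genes, with 1156 or 6.54% at an unadjusted p under 0.05). The change of the LIN9 effect with loss of Sav1 was -0.36 ± 0.21 (SE) for Notch1, -0.34 ± 0.23 for Hey1 and -0.27 ± 0.26 for Heyl on the log2 scale, with edgeR adjusted p of 0.810, 0.847 and 0.903. Leaving out 1 library gave values from -0.52 to -0.13 for Notch1, from -0.45 to -0.21 for Hey1 and from -0.39 to -0.034 for Heyl. The calls of Hey1, Heyl and Notch1 in only 1 Sav1 background of experiment 2 are therefore not shown to differ between backgrounds. For Notch3 the interaction was -0.012 ± 0.23 with a 95% confidence interval of -0.47 to 0.45, and for Hes1 -0.047 ± 0.22 with -0.49 to 0.40.

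Of 46 further genes of the pathway, 42 passed the filter in both experiments. In LIN9 KO against LIN9 wt ventricles of experiment 1, 4 rose and 4 fell with edgeR (adjusted p under 0.05), in LIN9 KO against control 12 rose and 3 fell, and in double KO against Sav1 KO 7 rose and 3 fell, while the Sav1 comparisons and the interaction gave 0 calls among the 42. Over all genes tested, 20.9%, 23.2% and 23.4% were called in the 3 LIN9 comparisons. The 8 of 42 called in experiment 1 and the 10 of 42 called in the Sav1-deficient pair are close to the background. In LIN9 KO against control, 15 of 42 are above it, but only 7 of these calls held in every fit with 1 library left out. The others were all lost without LIN9 KO replicate 2, so the excess is not shown without that library. With the 6 libraries of that comparison alone, the calls of Dner, Adam10, Adam17, Aph1c and Furin were lost. The median log2 fold change of the 42 genes was 0.087, 0.22 and 0.13 in the 3 LIN9 comparisons, beside 0.016, 0.0086 and 0.032 over all genes tested. Fbxw7 and Nrarp were listed at 0 in all 18 libraries, as Actc1 was, and Dll3 and Hes5 had at most 2 and 1 counts in a library.

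Among the other ligands, the Delta-type ligand Dll1 was at 13.6, 13.8 and 12.1 CPM in LIN9 wt and 4.66, 6.61 and 4.42 CPM in LIN9 KO ventricles of experiment 1, at 14.6, 11.6 and 8.65 CPM in control and 3.94, 5.58 and 3.73 CPM in LIN9 KO ventricles of experiment 2. It fell in both (log2 fold change -1.33 ± 0.18 and -1.39 ± 0.28 (SE), edgeR adjusted p = 1.38e-04 and 4.94e-04) and did not pass in double KO against Sav1 KO (-0.56 ± 0.29, adjusted p = 0.163), although these groups did not overlap. A gene on the other strand covers 20.5% of its exonic length. Dner, a non-canonical ligand, rose in all 3 comparisons (1.01, 1.43 and 1.52), from between 0.343 and 1.99 CPM in LIN9 wt ventricles, but its groups overlapped in the first 2, the call was lost without 4 of the 6 libraries of each comparison in turn, and none of the 3 passed with DESeq2. Jag2, the second Jagged-type ligand, rose in LIN9 KO against control (0.63 ± 0.17), although not without LIN9 KO replicate 2 (0.52, edgeR adjusted p = 0.0653) or control replicate 2 (0.50, adjusted p = 0.0766), and Dlk1, an inhibitory ligand, rose in both comparisons of experiment 2 (0.67 ± 0.13 and 0.37 ± 0.13). The first call of Dlk1 held without any single library, and the second was lost without each of the 6 libraries in turn (adjusted p of 0.0761 to 0.177) and with DESeq2 (0.103).

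Of the genes that modify or cleave receptors, Lfng, the Fringe glycosyltransferase that alters the response to Delta and Jagged ligands, rose in experiment 1 (0.82 ± 0.19) and in double KO against Sav1 KO (0.96 ± 0.26), but stood at -0.064 ± 0.27 in LIN9 KO against control. The sheddase Adam10 rose in both comparisons of experiment 2 (0.27 ± 0.093 and 0.48 ± 0.093). The sheddase Adam17 (0.29 ± 0.11), the gamma-secretase subunit Aph1c (1.25 ± 0.41) and the convertase Furin (0.58 ± 0.17) passed as higher in LIN9 KO against control and in no other comparison, and none passed the interaction. In LIN9 KO against control, the calls of Adam10, Adam17 and Aph1c were lost without 5 of the 6 libraries in turn (adjusted p up to 0.189, 0.263 and 0.170), and that of Furin without 3, which are LIN9 KO replicate 2 and control replicates 2 and 3 (up to 0.0789). With the 6 libraries of the comparison alone, the calls of all 4 were lost (adjusted p of 0.139, 0.134, 0.0514 and 0.0723). With DESeq2, those of Adam17 and Aph1c were lost (0.149 and 0.0826), without a filter on low counts those of Adam10 and Adam17 (0.0588 and 0.0795), and with DESeq2-type size factors that of Adam17 (0.0545). The other genes of this group passed in none.

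Of the nuclear cofactors, the coactivators Maml2 (0.58 ± 0.15) and Maml3 (0.75 ± 0.20) each rose in 1 comparison, whereas the acetyltransferase Kat2b (-0.39 ± 0.11) and the corepressor Spen (-0.43 ± 0.13) fell in 1. Kat2b was lost without LIN9 wt replicate 1 or 3 of experiment 1 (edgeR adjusted p up to 0.0697), Maml3 without double KO replicate 2 or Sav1 KO replicate 2 (up to 0.0706), and Spen without double KO replicate 2 or Sav1 KO replicate 1 (up to 0.182), while Maml2 held. Among the genes for ligand and receptor trafficking, the adaptor Numbl, an inhibitor of Notch, rose in all 3 comparisons, with 21.0 to 23.5 CPM in LIN9 wt and 37.8 to 51.7 CPM in LIN9 KO ventricles of experiment 1 (0.96 ± 0.13, edgeR adjusted p = 1.40e-04). The ubiquitin ligases of the Neuralized family went in opposite directions in all 3: Neurl1a rose (0.67, 0.96 and 1.23) and Neurl1b fell (-1.42, -1.31 and -1.34). The ubiquitin ligases Mib2 (0.54 ± 0.13) and Dtx1 (2.53 ± 0.70) rose in LIN9 KO against control. The calls of Dtx1 and Neurl1a in that comparison were lost without LIN9 KO replicate 2 (adjusted p = 0.0809 and 0.0601), and that of Neurl1a in experiment 1 without LIN9 KO replicate 2 or 3 or LIN9 wt replicate 1 or 2 (up to 0.140). The call of Dtx1 was also lost with DESeq2 (adjusted p = 0.0700). Over the 42 genes, 5 of 8, 7 of 15 and 6 of 10 calls held without any single library in the 3 comparisons.

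Hey2, the Hey gene of compact ventricular myocardium, was at 154, 166 and 156 CPM in LIN9 wt and 86.3, 87.3 and 97.5 CPM in LIN9 KO ventricles of experiment 1. In experiment 2, it was at 134, 167 and 162 CPM in control, 91.0, 98.7 and 86.5 CPM in LIN9 KO, 184, 178 and 180 CPM in Sav1 KO and 95.8, 119 and 91.8 CPM in double KO ventricles. It fell without overlap in all 3 LIN9 comparisons (log2 fold change -0.81 ± 0.10, -0.74 ± 0.11 and -0.82 ± 0.11 (SE), edgeR adjusted p = 4.97e-05, 1.16e-05 and 2.28e-06). Of 3 genes known to act with Notch in trabeculation, 2 rose in experiment 1 and 3 in each comparison of experiment 2. Over all genes tested, 11.1%, 12.8% and 11.8% were called higher in the 3 LIN9 comparisons. The endocardial growth factor Nrg1 rose in all 3 (0.95 ± 0.10, 0.53 ± 0.13 and 1.11 ± 0.13), as did the ephrin Efnb2 (0.39 ± 0.10, 0.46 ± 0.13 and 0.43 ± 0.13). The Efnb2 calls were lost without LIN9 wt replicate 1 or 3 in experiment 1, without LIN9 KO replicate 1 or 2 or control replicate 3 in the second comparison, and without double KO replicate 2 or 3 or Sav1 KO replicate 2 or 3 in the last (adjusted p up to 0.0757, 0.0935 and 0.133), and the last also with DESeq2 (0.0506). The trabecular growth factor Bmp10 rose in both comparisons of experiment 2 (0.97 ± 0.14 and 1.25 ± 0.14) and was at 0.37 ± 0.21 in experiment 1 (adjusted p = 0.282).

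**Figure D4:**
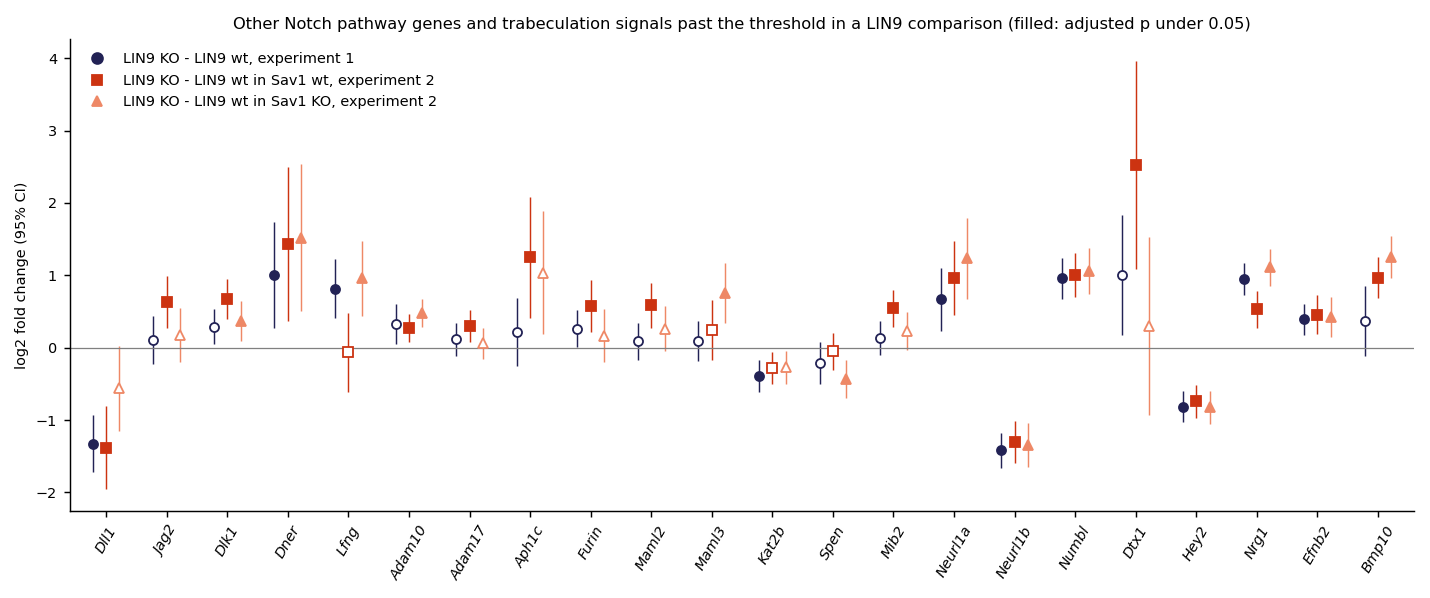
log2 fold change with 95% confidence interval (y axis) of the further Notch pathway genes and trabeculation signals (x axis) that passed the test in at least 1 of the 3 LIN9 comparisons (symbols); filled symbols have an adjusted p under 0.05. Neurl1b and Hey2 lie below 0 in all 3 comparisons, and Neurl1a, Numbl, Nrg1 and Efnb2 lie above 0.

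In bulk ventricles, fewer cells of a type and less RNA per cell cannot be told apart, and markers of several cell types moved with LIN9. The marker counts here and below stand beside a background over all genes tested. In the 3 LIN9 comparisons, 11.1%, 12.8% and 11.8% were called higher and 9.78%, 10.5% and 11.6% lower. No marker list was tested against these shares. In experiment 1, 4 of 6 cardiomyocyte and 3 of 3 ventricular markers fell, with sums of 5764 to 10495 and 1312 to 2019 CPM in LIN9 KO ventricles. Of 4 atrial markers, known from the tissue in which Hey1 is also known, 1 rose in each LIN9 comparison. This was the potassium channel gene Kcna5 in experiment 1 (log2 fold change 0.67 ± 0.22 (SE), edgeR adjusted p = 0.0401) and sarcolipin, Sln, in LIN9 KO against control (1.56 ± 0.41, adjusted p = 0.0168) and in double KO against Sav1 KO (1.79 ± 0.46, adjusted p = 0.0148). Sln in experiment 1 was at 1.75 ± 0.54 (adjusted p = 0.0833), and its libraries did not overlap between LIN9 KO and LIN9 wt in any of the 3 comparisons. The atrial sums were 510 to 952 CPM in LIN9 wt and 681 to 1163 CPM in LIN9 KO ventricles of experiment 1, 597 to 837 CPM in control and 680 to 1004 CPM in LIN9 KO, and 606 to 775 CPM in Sav1 KO and 531 to 881 CPM in double KO ventricles, with overlap in each. The part of atrial tissue in the higher Hey1 was not tested. Of the endothelial list, 3 of 10 rose and 1 fell in experiment 1 (Pecam1, Emcn and Flt1 rose and Robo4 fell), 3 rose and 1 fell in LIN9 KO against control, and 4 rose and 1 fell in double KO against Sav1 KO. Their sums were 936 to 1206 CPM in LIN9 wt and 1114 to 1423 CPM in LIN9 KO ventricles of experiment 1, 1025 to 1056 CPM in control and 1082 to 1260 CPM in LIN9 KO, and 920 to 979 CPM in Sav1 KO and 1010 to 1204 CPM in double KO ventricles. The endothelial sums overlapped in experiment 1 and did not overlap in experiment 2.

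Of the endocardial list, 1 of 4 rose and 1 fell in experiment 1, 2 rose in LIN9 KO against control, and 3 rose and 1 fell in double KO against Sav1 KO, with sums of 748 to 902 CPM in LIN9 wt and 751 to 960 CPM in LIN9 KO ventricles of experiment 1. In experiment 2, the endocardial sums were 793 to 861 CPM in control, 860 to 1061 CPM in LIN9 KO, 714 to 783 CPM in Sav1 KO and 716 to 894 CPM in double KO ventricles. These ranges overlapped in all 3 comparisons by at least 1 library.

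Of the mural list, for the cells in which Notch3 and Heyl are known, 2 of 8 rose and 2 fell in each LIN9 comparison. Pdgfrb rose in all 3 (log2 fold change 1.19, 1.25 and 1.07), as did Tagln (1.39, 1.07 and 1.02), of whose exonic length 67.9% lies under genes on the other strand, while Cspg4 and Kcnj8 fell in experiment 1, Kcnj8 and Acta2 in LIN9 KO against control, and Cspg4 and Acta2 in the Sav1-deficient pair. The mural sums were 1596 to 1840 CPM in LIN9 wt and 2209 to 2443 CPM in LIN9 KO ventricles of experiment 1, 1586 to 1659 CPM in control and 1587 to 2012 CPM in LIN9 KO, and 1838 to 1889 CPM in Sav1 KO and 1739 to 1965 CPM in double KO ventricles. They did not overlap in experiment 1 and overlapped in both comparisons of experiment 2. No endothelial, endocardial or mural marker was at 0 in any library.

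Markers of other cells also rose. In experiment 1, the sums of fibroblast and cushion mesenchyme markers were 1928 to 2207 CPM in LIN9 wt and 3977 to 4264 CPM in LIN9 KO ventricles (7 of 8 rose), and those of epicardial markers 302 to 316 and 537 to 616 CPM (6 of 7 rose). Macrophage markers were at 69.8 to 77.4 and 140 to 169 CPM (8 of 8 rose) and erythroid markers at 3572 to 5150 and 14888 to 40519 CPM (8 of 8 tested rose, with Alas2 listed at 0 in all libraries). None of these sums overlapped between LIN9 KO and LIN9 wt in either experiment. The part of these cells in the higher levels of Notch3, Hes1, Hey1 and Heyl was not tested.

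**Figure D5:**
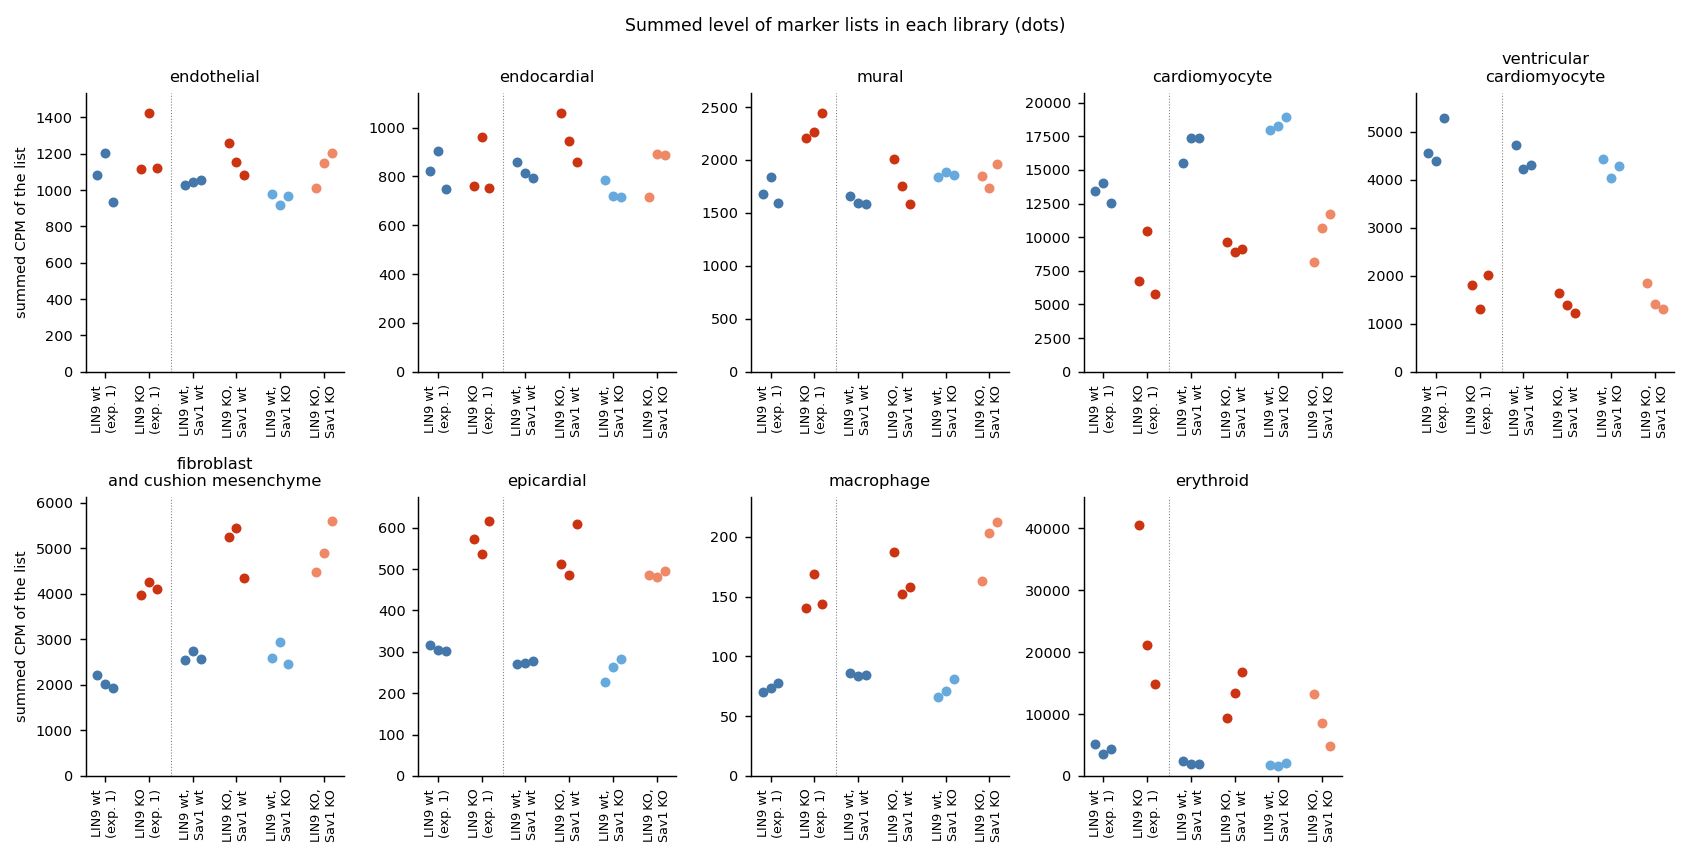
Summed CPM (y axis) of 9 marker lists (panels) in the 18 libraries (dots), by genotype group (x axis); the dotted line separates the experiments. The ventricular cardiomyocyte sums are 1226 to 2019 CPM in LIN9 KO and 4032 to 5278 CPM in LIN9 wt groups.

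For 4 of the 10 genes, the genes whose level followed theirs most closely were sought among 11983 genes. These had a symbol and a mean of at least 5 CPM in both experiments. The 10 genes themselves, the further pathway genes, the trabeculation signals, the cell type markers, Lin9 and Sav1 were left out of the search. They may follow as closely as the genes named here. Likeness was measured by Pearson's r of log2 CPM over the 12 libraries of experiment 2. These libraries share the genotype differences and the scaling to library size, so the values are a description. For Notch1 they were Bahd1 (r = 0.937, and 0.561 over the 6 libraries of experiment 1), Wnt9b (0.929 and 0.741) and Golga2 (0.928 and 0.773). For Dll4 they were Map3k4 (0.920 and 0.560), Sipa1l2 (0.894 and 0.467) and Sorcs2 (0.890 and 0.724). For Hey1 they were Cnppd1 (0.947 and 0.821), C77080 (0.934 and 0.820) and Gm10155 (0.923 and 0.555), and for Heyl Tpm4 (0.925 and 0.800), Ssr1 (0.916 and 0.735) and Arf4 (0.913 and 0.751). In each case r was lower in experiment 1, whose libraries did not choose these genes.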

How the data were processed

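The authors mapped the RNA-seq reads with TopHat2 2.1.0 and Bowtie2 to mm10, brought all samples to the read number of the smallest, and deposited counts per Ensembl gene; the overlap mode and strandedness are not given in the sources used here. Deposited tables of the authors' own edgeR comparisons were not used, and neither were the 4 ChIP-seq samples. The members and gene lists were chosen with earlier results of these data known. Further pathway genes are named where they passed the test. For Notch1, Dll4, Hey1 and Heyl, the 3 genes most like each are named from outside all of these lists. One further pathway gene is not reported here. Duplicated rows (4 in each table) were kept once.

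After TMM normalization, the deposited counts went into the quasi-likelihood test of edgeR 4.0.16 (robust fit, with limma 3.58.1 in R 4.3.3) for 19752 and 17675 genes with a mean count above 1, with Benjamini-Hochberg adjustment over all of them and a threshold of 0.05. Experiment 1 was fitted on its 6 libraries, and experiment 2 on all 12 with contrasts of group means. Errors are SE from the fit or SD over 3 libraries. No per-sample column was unused (0 columns). Exonic lengths and positions are from GENCODE M21 (GRCm38), and promoter sequences from RefSeq (GRCm38.p6). The fit was tested on simulated data.

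Alternatives were DESeq2 (1.42.0), DESeq2-type size factors, no filter, filterByExpr, the replicate number as a block, the 6 libraries of a comparison alone and each library left out. Same-numbered libraries deviated together (r above 0.1 in all 3 pairs) between LIN9 KO and control (0.257 to 0.637) and between Sav1 KO and control (0.102 to 0.330), which comes from these values alone, and not in the other comparisons.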

Additional observations from a re-analysis of the deposited data

How the results depend on the processing

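The calls of Notch3 in all 3 LIN9 comparisons, of Hey1 in both comparisons with wild-type Sav1 and of Hes1 and Heyl in experiment 1 held in every fit with 1 library left out. They also held under DESeq2, DESeq2-type size factors, no filter, filterByExpr, the replicate block and, in experiment 2, the 6 libraries alone. The other calls of Notch1, Hes1 and Heyl were lost in some fits with 1 library left out, and these losses are given with the results. Between LIN9 KO and control, 2 to 5 of the 10 genes passed with 1 library left out, between double KO and Sav1 KO 1 to 2, and between double KO and LIN9 KO 0 to 1. With the replicate number as a block, 4, 5, 2, 0, 0 and 0 of the 10 genes passed in experiment 1, the other 2 LIN9 comparisons, the 2 Sav1 comparisons and the interaction, as without it, and the number of all genes that passed was 84 between double KO and LIN9 KO, whose numbers do not pair the samples. That number was 11 with DESeq2, 309 without a filter, 0 with filterByExpr, 0 with its 6 libraries alone and 0 to 378 with 1 library left out. Between Sav1 KO and control it was 22 without a filter, 31 with the 6 libraries alone and 0 to 2 with 1 library left out. For the interaction it was 17 without a filter and 0 to 64 with 1 library left out, and in experiment 1 it was 2722 to 4223. Values near 0 changed sign. Notch2 in experiment 1 was 0.0052 with filterByExpr, and the interaction of Notch3 was 1.25e-05 with DESeq2-type size factors, 0.0015 with DESeq2 and 0.0039 with filterByExpr. With 1 library left out, log2 values that changed sign ranged as follows. In experiment 1 they ran from -0.071 to 0.056 for Notch2, from -0.28 to 0.019 for Notch4, from -0.24 to 0.0025 for Dll4 and from -0.0082 to 0.13 for Rbpj. For LIN9 KO against control they ran from -0.26 to 0.10 for Notch4. For double KO against Sav1 KO they ran from -0.074 to 0.19 for Notch2, from -0.089 to 0.13 for Notch4, from -0.35 to 0.14 for Dll4, from -0.33 to 0.019 for Lin9 and from -0.028 to 0.097 for Sav1. For Sav1 KO against control they ran from -0.11 to 0.12 for Notch1, from -0.065 to 0.029 for Notch2, from -0.32 to 0.022 for Notch4, from -0.037 to 0.18 for Dll4, from -0.029 to 0.28 for Jag1, from -0.22 to 0.033 for Hes1 and from -0.27 to 0.074 for Lin9. For double KO against LIN9 KO they ran from -0.22 to 0.042 for Notch2, from -0.17 to 0.11 for Notch4, from -0.15 to 0.34 for Dll4 and from -0.32 to 0.038 for Heyl. In the interaction they ran from -0.20 to 0.065 for Notch2, from -0.12 to 0.14 for Notch3, from -0.047 to 0.31 for Notch4, from -0.19 to 0.29 for Dll4, from -0.12 to 0.17 for Jag1, from -0.11 to 0.091 for Rbpj and from -0.17 to 0.11 for Hes1. Of the values of single genes under an alternative, 1249 kept their direction and side of the threshold, 88 lost the call, 1 gained it and 55 changed sign; the cause was not tested. Of the 10 genes, the lowest count in a library was 32, for Dll4 in 1 double KO library, and the calls of the ligand Dner rest on 1 to 30 counts a library.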
